A study of Mus musculus with 6 samples.

Results

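The Ly6 genes of mouse chromosome 15 encode small proteins of the lymphocyte surface. The 7 genes Ly6a, Ly6c1, Ly6c2, Ly6d, Ly6e, Ly6i and Ly6k were taken by symbol from the 55401 genes of the deposited count tables, and all 7 were found. They lie within a 350 kb stretch, and 6 of them had enough reads to be tested between groups. Ly6k, with 10 reads in all control libraries and 21 in all knockout libraries, had too few.

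The study used RNA sequencing of mouse T cells to ask what the chromatin organizer SATB1 does for gene expression, with a chemokine gene cluster named in its title. The control group of 3 libraries carried the label WT, and the group of 3 Satb1 conditional knockout (cKO) libraries came from Satb1 flox/flox CD4-Cre mice. In both groups naive CD4+ T cells were enriched from spleen with magnetic beads and stimulated through CD3 and CD28 for 24 h. Cre under Cd4 regulatory sequences acts from the stage of thymus development at which CD4 appears, so deletion is set to begin before the cells reach the spleen. The sources used here do not say whether the control mice carried Cre or floxed alleles, their age and sex, or whether each library came from its own mouse. The p-values therefore cover only library-to-library spread, which may be technical.

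Ly6 proteins share a compact, disulfide-bonded fold with the urokinase receptor and are mostly held in the outer leaflet of the membrane by a glycosylphosphatidylinositol (GPI) anchor. On T cells they serve as markers of activation and memory: Ly6a is the stem cell antigen Sca-1, which interferons and T cell activation induce, and the Ly6C antigen, encoded by Ly6c1 and Ly6c2, marks subsets of T cells and inflammatory monocytes. SATB1 is abundant in thymocytes and T cells, where it binds AT-rich DNA and organizes chromatin loops.

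Libraries held 14895389 to 20266626 reads in genes. Satb1 itself had 14465, 12682 and 11220 reads in the control libraries and 8109, 9541 and 7653 in the cKO libraries, without overlap after scaling, a log2 fold change of -0.68 (SE 0.087, edgeR adjusted p = 9.70e-05). The floxed exons are not named in the labels, and reads from exons outside them count toward the gene, so this partial fall is no measure of excision. Of 16 T cell identity genes, 2 rose (1 without control replicate 2 or 3, or without cKO replicate 1 or 3) and 11 fell, where 21.6% and 20.7% of all genes tested rose and fell. Their median was -0.23 (log2). Cd4 had the smallest p (701 ± 20.0 against 209 ± 4.06 CPM, SD, n = 3). The list summed to 5631, 5539 and 5700 CPM in control and 4475, 4572 and 4604 CPM in cKO libraries. Cd3e, singled out here once its values were known, lay between 139 and 159 CPM in all 6 libraries. It is 1 of the 16 genes, of which 11 fell, and does not speak for the list. CPM is the usual depth-scaled read count, here with TMM factors applied to the gene reads of each library.

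Ly6c1 and Ly6c2 are near-identical copies, so the letters that tell them apart decide where a read is counted. Their coding sequences (393 bases each, in 3 exons) matched at 384 positions (97.7%), with 9 differences and a longest identical run of 188 bases. The following 120 bases, coding bases 208 to 327, are shown because they hold 2 of those differences, in capitals. They lie on the minus strand of GRCm38, at chr15:75045471-75045590 in Ly6c1 and at chr15:75108612-75108731 in Ly6c2.
Ly6c1: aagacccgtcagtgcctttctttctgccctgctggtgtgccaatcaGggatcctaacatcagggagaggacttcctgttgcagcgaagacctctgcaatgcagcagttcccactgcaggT
Ly6c2: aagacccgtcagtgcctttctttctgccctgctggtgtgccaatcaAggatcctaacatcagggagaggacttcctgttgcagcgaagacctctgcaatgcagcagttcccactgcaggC
A short read that lies wholly in lower-case letters aligns equally well to both genes. Of all stretches of 50 bases in the longest coding transcript, 36.7% of Ly6c1 and 33% of Ly6c2 also occur in transcripts of another gene, and for stretches of 100 bases the shares were 15.3% and 15.8%, all between the pair. Ly6a and Ly6i matched at 86.3% of coding positions and shared 10% and 4.97% of their 50-base stretches with other genes, Ly6d and Ly6e shared none, and Ly6k shared 29.2% of its 50-base and 17.2% of its 100-base stretches with the overlapping antisense gene Gm17189. In coding sequence Ly6d, Ly6e and Ly6k matched the other members at 46.5% to 53.5%. The read length of the libraries is not stated in the labels.

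Upstream of the start sites the Ly6c pair was less alike than in the coding part, which is why those bases are shown too. RefSeq windows for GRCm38.p6 were found for 2 of the 7 members (Ly6c1 and Ly6c2), and for Ly6a2, the next relative beyond Ly6c2. The 250 bases before each start, on the minus strand, are chr15:75048838-75049087 for Ly6c1, chr15:75111972-75112221 for Ly6c2 and chr15:75135129-75135378 for Ly6a2. Capitals mark letters that differ from the other gene of the pair in Ly6c1 and Ly6c2, and from Ly6c2 in Ly6a2. Ends that reach beyond the other stretch have no counterpart there. They were not compared and are in lower case too.
Ly6c1: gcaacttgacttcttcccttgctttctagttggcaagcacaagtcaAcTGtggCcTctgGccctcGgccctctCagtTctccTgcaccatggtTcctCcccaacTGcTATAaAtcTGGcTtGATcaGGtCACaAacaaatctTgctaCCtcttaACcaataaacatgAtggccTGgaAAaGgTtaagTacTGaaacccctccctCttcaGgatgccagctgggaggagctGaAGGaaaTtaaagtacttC
Ly6c2: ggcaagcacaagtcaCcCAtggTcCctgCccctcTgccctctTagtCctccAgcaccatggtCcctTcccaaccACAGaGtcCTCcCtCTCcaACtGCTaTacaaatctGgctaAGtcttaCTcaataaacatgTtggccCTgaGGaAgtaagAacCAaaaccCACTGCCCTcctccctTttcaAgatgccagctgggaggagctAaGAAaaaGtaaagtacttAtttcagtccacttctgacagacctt
Ly6a2: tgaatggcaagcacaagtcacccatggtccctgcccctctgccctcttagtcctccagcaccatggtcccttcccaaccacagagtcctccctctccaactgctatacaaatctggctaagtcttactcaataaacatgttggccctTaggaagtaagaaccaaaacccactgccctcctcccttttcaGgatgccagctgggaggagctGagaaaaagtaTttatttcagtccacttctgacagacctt
Ly6c1 and Ly6c2 matched at 164 of 228 aligned columns (71.9%), whereas Ly6c2 and Ly6a2 matched at 241 of 250 (96.4%). AT content was 51.6%, 50% and 50% for Ly6c1, Ly6c2 and Ly6a2, against a median of 47.6% over all 32851 windows. The motif TATAAA, on either strand, occurs in 12.4% of all windows and was found in Ly6c1 alone of these 3, with its first base at -143. The Runx motif TGTGGT, in 14% of all windows, was found in Ly6c2 at -179 and in Ly6a2 at -174, and not in Ly6c1. The interferon gamma motif TTCNNNGAA (GAS, 7.02% of windows) and the core of the interferon-stimulated response element (2.98%) were in none of the 3. A match is a description of the letters only.

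Across the family, 3 of the 6 tested members rose in cKO cells (Ly6c2, Ly6d and Ly6i), 1 fell (Ly6c1) and 2 did not pass the test (Ly6a and Ly6e). Of the 13364 genes tested, 21.6% rose and 20.7% fell, 42.3% in all, so a called member is by itself a common event in this comparison. A change that passed and reached 2-fold was less common, at 8.17% of genes in either direction and 5.24% higher. Among the members Ly6c2, Ly6i and Ly6c1 met it. In 4 of the 6 tested members (Ly6c2, Ly6d, Ly6i and Ly6a) every cKO library lay above every control, and none lay wholly below, where 27% of all genes tested were wholly higher, 26.5% wholly lower and 53.4% without overlap in either direction. Ly6i passed the filter on low counts only through its cKO libraries, so it had to differ to be tested. Fold changes are cKO over control, and adjusted p-values come from the quasi-likelihood test of edgeR, corrected by Benjamini-Hochberg over all genes tested, against a median of 0.00 (log2) over those genes.

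**Figure D1:**
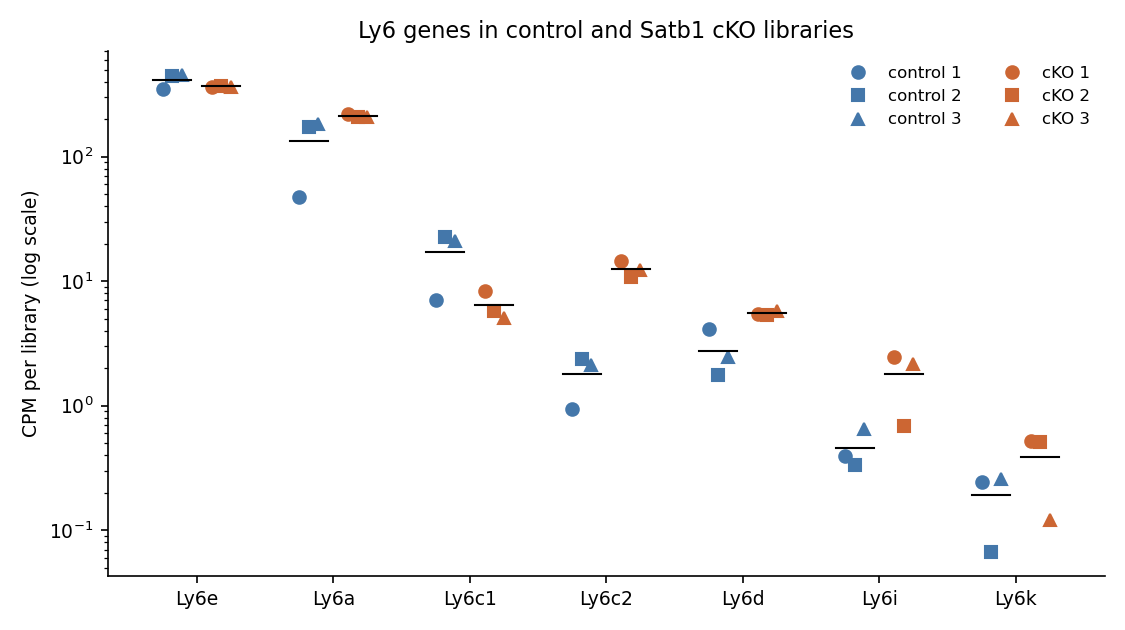
CPM of the 7 Ly6 genes in every library, on a log scale. Blue marks are the 3 control and orange marks the 3 cKO libraries, shapes give the replicate, and black lines are group means. Ly6c2 and Ly6c1 exchange order between the groups, and control replicate 1 lies below the other controls for Ly6a, Ly6c1 and Ly6c2.

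Ly6c2 was the member with the largest fold change. It lies at chr15:75108158-75111970 (ENSMUSG00000022584.14) and encodes one form of the Ly6C antigen. It had 19, 35 and 33 reads in the control libraries and 277, 187 and 203 in the cKO libraries, or 0.935, 2.35 and 2.14 CPM against 14.5, 10.7 and 12.3 CPM. Every cKO library stood above every control library, and the lowest control was replicate 1. Means were 1.81 ± 0.763 and 12.5 ± 1.94 CPM (SD, n = 3), a log2 fold change of 2.84 (SE 0.25, 7.15-fold, 95% interval 2.29 to 3.39, adjusted p = 5.77e-06). In RNA from a mixed suspension, more cells of a type and more RNA per cell cannot be told apart, which holds for every member.

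Ly6c1 moved the other way. It lies at chr15:75044018-75048830 (ENSMUSG00000079018.10), encodes the other form of Ly6C, and was the form counted in most control reads. It had 144, 338 and 326 reads in control libraries and 159, 100 and 84 in cKO libraries, or 7.09, 22.7 and 21.1 CPM against 8.35, 5.72 and 5.07 CPM. Control replicates 2 and 3 stood well above the cKO libraries, while control replicate 1 fell among them, so the groups overlapped. Means were 17.0 ± 8.59 and 6.38 ± 1.74 CPM (SD, n = 3), and the log2 fold change was -1.38 (SE 0.36, 2.6-fold lower, 95% interval -2.17 to -0.58, adjusted p = 0.00962). Without control replicate 1 the value was -1.78 (SE 0.16, adjusted p = 9.89e-07).

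The pair summed to similar mean levels in the groups, with a different makeup. The summed CPM of Ly6c1 and Ly6c2 was 8.02, 25 and 23.3 in control and 22.9, 16.4 and 17.3 in cKO libraries, with means of 18.8 ± 9.36 and 18.9 ± 3.51 (SD, n = 3). Of these reads, Ly6c2 took 11.7%, 9.38% and 9.19% in the control libraries, with exact Clopper-Pearson 95% intervals of 7.17 to 17.6, 6.62 to 12.8 and 6.41 to 12.7. In the cKO libraries it took 63.5%, 65.2% and 70.7%, with intervals of 58.8 to 68.1, 59.3 to 70.7 and 65.1 to 75.9. The intervals, which cover counting error only, do not meet between the groups, and control replicate 1, low in reads of both genes, had a share close to those of the other controls. The mean share was 10.1 ± 1.37% in control and 66.5 ± 3.78% in cKO libraries (SD, n = 3), a difference of 56.4 percentage points with p = 0.1 in an exact two-sided permutation test, the smallest value that 3 against 3 allows. Reads aligned to several places were listed apart from the genes in the deposited counts. Whether any from the identical stretches were also counted on either gene was not tested. The counts of both genes are uncertain to that extent.

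**Figure D2:**
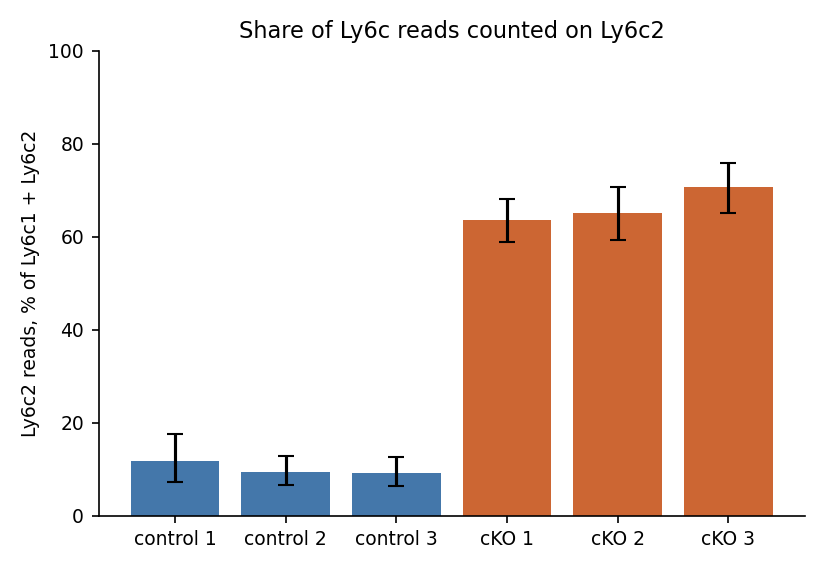
Share of the reads on Ly6c1 and Ly6c2 that was counted on Ly6c2, in percent, for each control (blue) and cKO (orange) library. Error bars are exact 95% binomial intervals. Control libraries lie between 9.19% and 11.7% and cKO libraries between 63.5% and 70.7%.

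Ly6d (chr15:74762056-74763620, ENSMUSG00000034634.7), the ThB antigen of thymocytes and B cells, rose about 2-fold from a low level. It had 83, 26 and 38 reads in control and 104, 94 and 96 in cKO libraries, or 4.09, 1.75 and 2.46 CPM against 5.46, 5.38 and 5.79 CPM. All cKO libraries lay above all controls, and here control replicate 1 was the highest control. The log2 fold change was 0.96 (SE 0.25, 95% interval 0.42 to 1.51, adjusted p = 0.00872), from 2.76 ± 1.2 to 5.55 ± 0.22 CPM (SD, n = 3). Ly6d also marks lymphoid progenitors committed to B cells. Of 10 markers of B and lymphoid progenitors 3 were tested, of which Kit rose, and Vpreb2, Igll1 and Rag2 had 0 reads in every library. The summed CPM of the progenitor list was 7.19 to 8.66 in control and 14.8 to 15.8 in cKO libraries. The median log2 fold change of its 3 tested genes was 0.00, and -0.32 without control replicate 1. A median of 3 genes does not speak for the list of 10. Of 9 tested B cell markers 2 rose (1 without control replicate 2 and 5 without control replicate 3), where 21.6% of all genes tested rose. Cd79b had the smallest p, and 4 of the 9 passed the filter on low counts only through cKO libraries. The B cell list summed to 232 to 298 CPM in control and 250 to 312 CPM in cKO libraries. The part of either list in the Ly6d result was not tested.

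Ly6i (chr15:74979534-74983430, ENSMUSG00000022586.11), a relative of Ly6a expressed by blood cells, rose from near the limit of detection. It had 8, 5 and 10 reads in control and 47, 12 and 36 in cKO libraries, or 0.394, 0.336 and 0.648 CPM against 2.47, 0.687 and 2.17 CPM. The groups did not overlap, though cKO replicate 2 was only just above the highest control. The log2 fold change was 1.95 (SE 0.49, 3.87-fold, 95% interval 0.87 to 3.03, adjusted p = 0.00785), and without cKO replicate 2 it was 2.33. Means were 0.459 ± 0.166 and 1.78 ± 0.955 CPM (SD, n = 3).

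Ly6a (chr15:74994877-74998031, ENSMUSG00000075602.10), the Sca-1 antigen, was higher in every cKO library than in any control but did not pass the test. It had 959, 2564 and 2802 reads in control and 4213, 3614 and 3440 in cKO libraries, or 47.2, 172 and 182 CPM against 221, 207 and 208 CPM. The cKO libraries were nearly level, the highest being 1.07 times the lowest, whereas among controls replicate 1 stood far below the rest, with a ratio of 3.85. The median ratio of highest to lowest control over all genes tested was 1.14, and 0.965% of genes had a ratio at least that of Ly6a. The log2 fold change was 0.68 (SE 0.34, 1.6-fold, 95% interval -0.07 to 1.43, adjusted p = 0.136), from 134 ± 75 to 212 ± 8.13 CPM (SD, n = 3). Without control replicate 1, Ly6a was called higher with a log2 fold change of 0.25 (SE 0.047, adjusted p = 0.000718), and with the replicate number as a block it was 0.84 (adjusted p = 0.0854).

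Ly6e (chr15:74955051-74959905, ENSMUSG00000022587.14), a widely expressed and interferon-induced member known for its effects on virus entry, had the most reads of the family and the smallest fold change of the tested members. It had 7095, 6570 and 7027 reads in control and 6943, 6505 and 5997 in cKO libraries, or 349, 441 and 455 CPM against 365, 372 and 362 CPM. The cKO libraries lay between control replicate 1 and the other controls, so the groups overlapped. The log2 fold change was -0.18 (SE 0.079, 95% interval -0.35 to -0.01, unadjusted p = 0.0441, adjusted p = 0.0909), from 415 ± 57.6 to 366 ± 5.32 CPM (SD, n = 3). Ly6e was called lower without control replicate 1, at -0.30 (SE 0.038, adjusted p = 2.04e-05), and by DESeq2, at -0.18 (adjusted p = 0.0434).

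Ly6k (chr15:74796874-74799986, ENSMUSG00000044678.11), known from testis and sperm, had 5, 1 and 4 reads in control and 10, 9 and 2 in cKO libraries. Its groups overlapped. Fitted without a filter on low counts, it had a log2 fold change of 0.96 (SE 0.7, adjusted p = 0.398), so no difference was detectable at this depth. It overlaps the antisense gene Gm17189 at chr15:74784065-74800640 on the plus strand. Gm17189 had 0 reads in every library. Whether counting used strand is not stated in the labels, and reads from the shared stretch cannot be assigned with certainty.

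**Figure D3:**
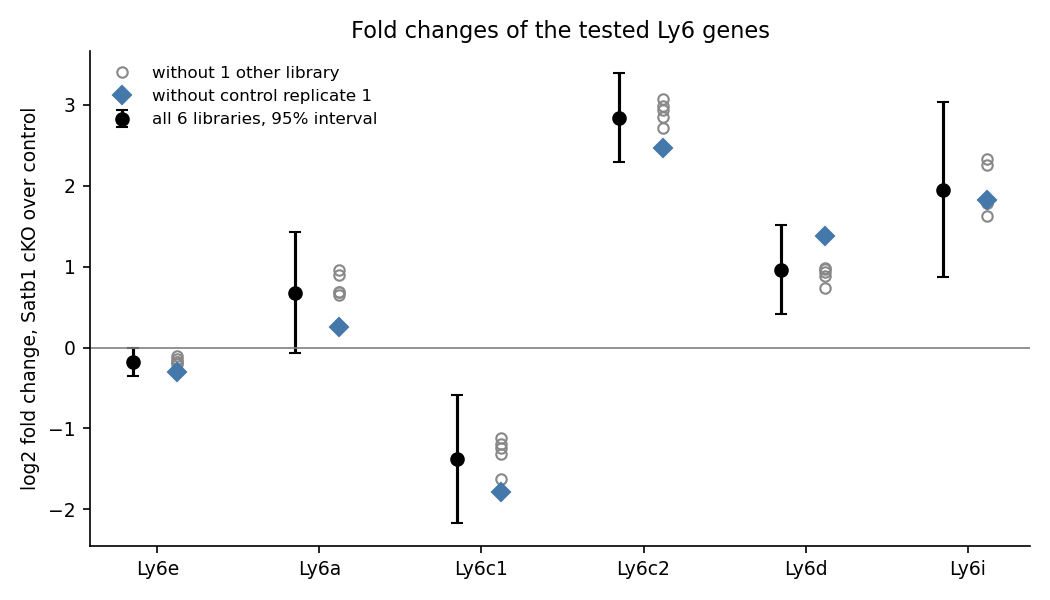
Log2 fold change (cKO over control) of the 6 tested Ly6 genes. Black points with bars are the fit to all 6 libraries and its 95% interval, open circles leave out 1 other library each, and blue diamonds leave out control replicate 1. Ly6c2, Ly6d and Ly6i stay above 0 and Ly6c1 below 0 in every fit, while Ly6a drops from 0.68 to 0.25 without control replicate 1.

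To compare genes with each other, CPM were divided by the length of the longest coding transcript in kb. On this scale Ly6e led in control cells with 182 ± 25.3 CPM per kb, followed by Ly6a with 140 ± 78.5 (SD, n = 3), which did not differ beyond their spread. Next came Ly6c1 at 20.1 ± 10.2, then Ly6d at 3.72 ± 1.61 and Ly6c2 at 2.20 ± 0.928, the last pair again within their spread, and Ly6i at 0.397 ± 0.144 and Ly6k at 0.241 ± 0.136 were lowest. In cKO cells Ly6a led with 222 ± 8.52 CPM per kb ahead of Ly6e with 161 ± 2.33, and Ly6c2 at 15.2 ± 2.36 came next. Ly6c1 at 7.56 ± 2.06 and Ly6d at 7.45 ± 0.295 were level, and Ly6i at 1.54 ± 0.826 and Ly6k at 0.489 ± 0.292 closed the order. The order of Ly6c1 and Ly6c2 was thus the opposite in the groups. The lead of Ly6a in cKO cells rests on the transcript chosen, of 955 bases among 6 annotated for Ly6a and 2281 bases among 16 for Ly6e. Without the division by length Ly6e led in cKO cells, at 366 ± 5.32 CPM against 212 ± 8.13 CPM for Ly6a (SD, n = 3). Ly6a and Ly6e together made up most of the reads of the family, whose summed CPM was 409, 640 and 664 in control and 617, 602 and 595 in cKO libraries. Ly6e took 74.3 ± 9.58% of this sum in control and 60.6 ± 1.39% in cKO libraries, and Ly6a 21.9 ± 9% and 35 ± 0.757% (SD, n = 3).

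Interferons induce several Ly6 genes, and the interferon genes were therefore read in the same libraries. Of 21 interferon gamma pathway genes, 8 rose, 2 fell and 11 did not pass the test, where 21.6% and 20.7% of all genes tested rose and fell. The median of the 21 was 0.23 (log2). The called genes with the smallest p were Cxcl10, a chemokine that attracts CXCR3-bearing T cells (log2 fold change 3.94), the transcription factor Irf8 (2.89), the receptor chain Ifngr1 (1.48) and the feedback inhibitor Socs1 (1.15), all 4 higher in cKO cells. Of the 21 genes 3, Ifng and Cxcl10 among them, passed the filter on low counts only through their cKO libraries. Ifng itself, singled out here once its values were known, had 0.295, 0.739 and 1.88 CPM in control and 10.8, 6.47 and 14 CPM in cKO libraries, and its log2 fold change of 3.49 passed the test.

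Control replicate 1 was low in these genes as it was in Ly6a. The pathway summed to 2447, 4053 and 4051 CPM in control and 4629, 4550 and 4553 CPM in cKO libraries. Control replicate 1 was the lowest control for 19 of the 21 genes (90.5%), and for 10 (47.6%) it was under 0.5 times both other controls, against 36.3% and 1.29% of all genes tested. For the Ly6 members the same counts were 4 and 3 of 6. Gbp2, a guanylate-binding protein induced by interferon gamma and also singled out once its values were known, had 155, 510 and 499 CPM in control and 448, 470 and 445 CPM in cKO libraries. Its control replicate 1 was low as in Ly6a, but its cKO libraries lay below control replicates 2 and 3, where those of Ly6a lay above.

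Without control replicate 1, 8 pathway genes were higher and 7 lower, with a median of 0.00. In the type I interferon response list, 4 of 26 tested genes rose and 5 fell, where 21.6% and 20.7% of all genes tested rose and fell. Ifit2 fell, with a log2 fold change of -1.09, while Tyk2 (0.31), Ifnar2 (0.38) and Rsad2 (3.01) rose. Control replicate 1 was again the lowest control for 23 of 26 genes, and without it 4 were higher and 14 lower. The part of interferon in the level of any Ly6 gene was not tested.

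**Figure D4:**
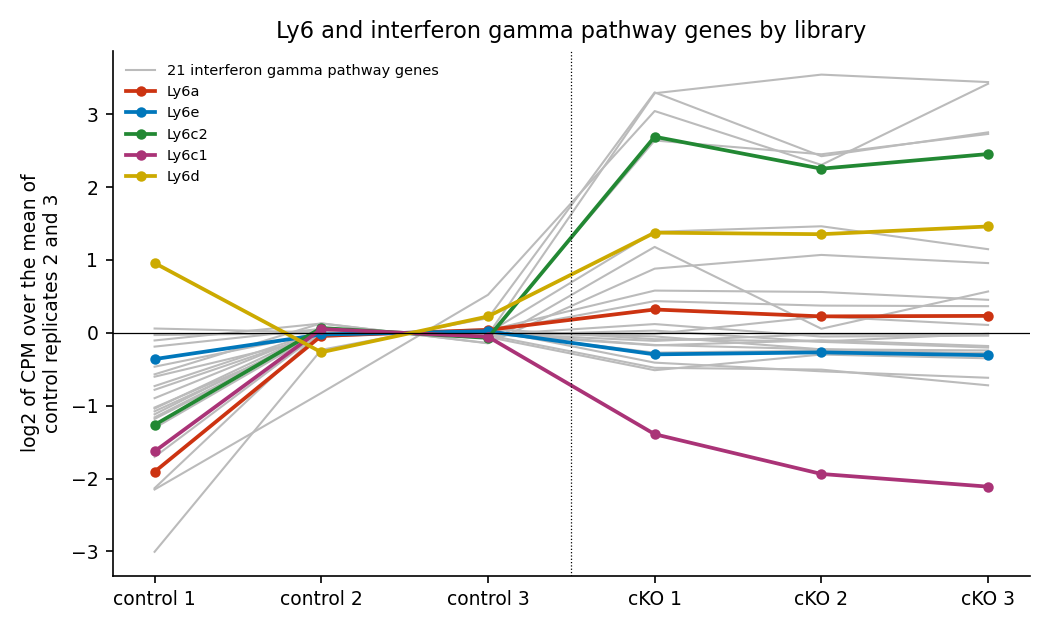
Log2 of CPM in each library over the mean of control replicates 2 and 3, for Ly6a, Ly6c1, Ly6c2, Ly6d and Ly6e (coloured lines) and the 21 interferon gamma pathway genes (grey lines). Lines join the values of a gene and replicate numbers carry no order. Control replicate 1 is low for most grey lines and for Ly6a, Ly6c1 and Ly6c2, and high for Ly6d.

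Genes with patterns most like each member were found among 11266 tested protein-coding genes, by the root mean square distance between centred log2 CPM over the 6 libraries. Nearest to Ly6a was Tbkbp1, at a distance of 0.13 where the median gene was at 0.79, with 5.42, 21.2 and 21.6 CPM in control and 24.4, 19.2 and 22.8 CPM in cKO libraries. Gm12185 and Tbx21, the transcription factor T-bet of type 1 T cells, followed at 0.23 each, and Tbx21 had 17, 64.1 and 69.8 against 108, 106 and 111 CPM. All of these carry the low value of control replicate 1, which the choice by pattern over the same 6 libraries favours. Nearest to Ly6c2 was Irf8, at 0.13 (median 1.46), with 64.7, 137 and 129 CPM in control and 829, 727 and 882 CPM in cKO libraries, followed by C1qtnf6 at 0.19 and Serpina3f at 0.20.

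Nearest to Ly6c1 were Gm6904, Hif3a and Prss16 at 0.23, 0.27 and 0.30 (median 0.87). Close to Ly6d were Acot11 and Fgd6 at 0.15 and 0.16 (median 0.64). Ly6e lay within 0.03 of Trim56, Ttc7 and Ccdc30, where the median gene was at 0.21. Close to Ly6i were Tnfaip2 at 0.29, with 3.54, 3.49 and 3.44 CPM in control and 15.3, 6.24 and 12.3 CPM in cKO libraries, and Ccl6 at 0.30 (median 0.99). Tnfaip2 and Ccl6 both had their lowest cKO value in replicate 2, as Ly6i did, which the choice by pattern over the same libraries favours.

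Monocytes, neutrophils and other cells that bead enrichment can leave also express Ly6c2 and Ly6i, and their markers differed between the groups. Of 11 tested monocyte and macrophage markers 8 rose and 1 fell, where 21.6% and 20.7% of all genes tested rose and fell. Lyz2 (log2 fold change 2.82) and Chil3 (3.84) had the smallest p, but 6 of the 11, Chil3 among them, passed the filter on low counts only through their cKO libraries. The list summed to 45.9, 52.5 and 50.5 CPM in control and 144, 89.7 and 188 CPM in cKO libraries, lowest of the cKO libraries in replicate 2, as for Ly6i. None of its 18 genes was at 0 reads in a whole group. Ccr2, the chemokine receptor that goes with high Ly6C on monocytes, was singled out once its values were known. It was 1 of 2 tested markers not called, and it too passed the filter only through its cKO libraries. Ccr2 had 0.492, 0.671 and 0.907 CPM in control and 1.58, 0.744 and 1.51 CPM in cKO libraries. A single gene does not speak for the list. The 14 neutrophil markers summed to 1.62, 3.49 and 6.81 CPM in control and 41.3, 45.4 and 61.8 CPM in cKO libraries. All 10 that could be tested were called higher, Ngp (4.72) and S100a9 (3.98) with the smallest p. They passed the filter only through their cKO libraries, so the filter favoured this direction, though not the size of the differences. Without a filter 12 were called higher and 0 lower, in a fit with infinite prior degrees of freedom against 7.12 in the main fit. Ly6g, the neutrophil member of the family, had 0 reads in control and 2 in cKO libraries.

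Cytotoxic lymphocytes carry Ly6C as well. Of 9 NK cell markers 5 were tested and 4 of them rose, where 21.6% of all genes tested rose. Nkg7 (log2 fold change 3.20) and Prf1 (2.04) had the smallest p. The others were Eomes, which is also on the CD8 T cell list, and Klrk1, which kept its call in 6 of 11 alternatives. The NK list summed to 10.6 to 15 CPM in control and 46.3 to 56.4 CPM in cKO libraries. Of 6 tested CD8 T cell markers 5 rose, Runx3 (0.98) and Itgae (2.71) with the smallest p, and the list went from 96.7 to 100 CPM in control to 198 to 212 CPM in cKO libraries. Of 8 tested red cell markers all rose, 3 of which passed the filter only through cKO libraries, Hba-a1 (5.38) and Car2 (2.78) with the smallest p. Plasma cell (3 of 6 tested higher, Jchain at 3.46 and Prdm1 at 1.20), plasmacytoid dendritic cell (5 of 7 higher, 3 without control replicate 1, and 1 lower, Runx2 at 2.15 and Pacsin1 at -1.16) and conventional dendritic cell markers (2 of 5 higher, Zbtb46 at 2.36 and Batf3 at 1.33, the latter not called without control replicate 1 or 3 or cKO replicate 2) followed. Of 3 tested platelet markers 2 rose (1 without control replicate 3, cKO replicate 2 or cKO replicate 3) and 1 fell, and of 2 endothelial and stromal markers 1 rose and 1 fell. In summed CPM (SD, n = 3), plasma cell markers had 2256 ± 66.1 in control and 2238 ± 78.3 in cKO libraries. Conventional dendritic cell markers had 109 ± 20.3 and 87.7 ± 42.4, platelet markers 42.5 ± 10.7 and 25.2 ± 1.44. Endothelial and stromal markers had 89.7 ± 17.1 and 62.1 ± 3.32. Plasmacytoid dendritic cell markers had 101 ± 7.12 and 130 ± 1.99, and red cell markers 29.8 ± 3.01 and 1272 ± 836. The part of any of these cells in the rise of Ly6c2 and Ly6i was not tested.

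Memory T cells bear more Ly6C and Ly6A than naive ones, and T cell state genes moved in both directions. Of 16 memory and stem-like T cell genes, 7 rose, 6 fell and 3 did not pass the test, where 21.6% and 20.7% of all genes tested rose and fell. Lef1 (log2 fold change -0.99), Bach2 (-0.65) and Tcf7 (-0.64), transcription factors of naive and stem-like T cells, fell, and Cxcr3 (2.88), a receptor of type 1 effector and memory T cells, rose. Cxcr3 went from 1.10 ± 0.452 to 7.87 ± 1.04 CPM (SD, n = 3).

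Other members of the Ly6 and urokinase receptor superfamily were mostly silent: of 35 found in the tables, 19 had 0 reads in every library and 5 were tested. Of these 5, 3 rose and 1 fell, where 21.6% and 20.7% of all genes tested rose and fell. Plaur, the urokinase receptor, rose by 1.91 on the log2 scale (SE 0.13, adjusted p = 9.91e-07), from 4.97, 4.70 and 5.83 CPM to 18.4, 17.5 and 22.6 CPM. Lypd6b fell by 2.09 on the log2 scale (SE 0.17, adjusted p = 3.10e-06), from 6.20, 7.12 and 6.55 CPM to 1.58, 1.54 and 1.51 CPM. Neither gene's groups overlapped, as in 53.4% of all genes tested, and both lie on other chromosomes. Ly6m (1.07, adjusted p = 0.0292) and Lynx1 (0.55, adjusted p = 0.0305), a modulator of nicotinic receptors, rose too. These last calls were fragile: Lynx1 kept its call in 6 of 11 alternatives (adjusted p 0.0183 to 0.107) and Ly6m in 4 of 11 (0.0281 to 0.137), and neither was called by DESeq2, without control replicate 1, or without cKO replicate 2 or 3. Without cKO replicate 3 only Plaur was called higher. Ly6m, like Ly6i, passed the filter on low counts only through its cKO libraries, so it had to differ to be tested.

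Of 27 tested genes that make and attach GPI anchors 3 rose and 5 fell, around a median of -0.01 (log2), where 21.6% and 20.7% of all genes tested rose and fell. Without cKO replicate 3 these counts were 1 and 3, and without control replicate 3 a single gene rose. Mppe1 (-0.37), Pigx (-0.41) and Pigb (-0.28) fell and Pigt (0.15), a subunit of the transamidase that attaches the anchor, rose, the latter pair not without cKO replicate 3. Of 17 other GPI-anchored surface genes of lymphocytes 6 rose and 7 fell. Sema7a (1.87), the ecto-nucleotidase gene Nt5e (1.87) and Bst2 (0.68) rose, and the ADP-ribosyltransferase gene Art2b (-2.00) fell.

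The genes around the Ly6 members were read last, in a window of 1 Mb on either side (chr15:73762056-76111970). Of 86 other genes annotated there 26 were tested. Among these 5 rose (3 without cKO replicate 3) and 1 fell, around a median of 0.11 on the log2 scale, where 21.6% and 20.7% of all genes tested rose and fell. Between the outermost members 2 genes were tested. Ly6m (chr15:74876987-74897021), which entered the test only through its cKO libraries, went from 0.345, 0.470 and 0.713 to 1.05, 1.09 and 1.03 CPM. The lincRNA Gm39556 (chr15:74929437-74936316), over the filter in all 6 libraries, rose from 0.935, 1.07 and 1.36 to 2.26, 2.86 and 1.87 CPM (log2 fold change 1.06, SE 0.27, adjusted p = 0.00818). In both the cKO libraries lay above all controls, as in 27% of all genes tested. Gm39556 kept its call in every alternative that tested it. On the side before Ly6d, Lynx1 (chr15:74747852-74753046) was the 1 gene of 6 tested that rose, from 2.76, 3.89 and 2.98 to 4.25, 4.86 and 4.89 CPM. Beyond Ly6c2, 2 of 18 tested genes rose, by little: Puf60, a splicing factor (0.23, SE 0.040, adjusted p = 0.000818), and the elongation factor subunit Eef1d (0.20, SE 0.043, adjusted p = 0.00318). Ccdc166 fell there (-0.50, SE 0.13, adjusted p = 0.00993).

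Of 14 Ly6 and urokinase receptor relatives in the window, 7 had 0 reads in every library and 3 had at least 10 reads, namely Lynx1, Ly6m and Ly6a2. Ly6a2 (chr15:75131377-75135128, annotated as a transcribed pseudogene) is the relative whose upstream bases nearly match those of Ly6c2. It had 0, 1 and 3 reads in control and 16, 5 and 16 in cKO libraries. It was under the filter on low counts and was not tested with the other genes. In the fit without that filter its log2 fold change was 3.0 (SE 0.72, adjusted p = 0.000242). The prior degrees of freedom of that fit were infinite, against 7.12 in the main fit. Over the 5 alternatives that tested Ly6a2, the adjusted p was 0.000242 to 0.0354. Its cKO reads were above those of all controls, and lowest in replicate 2, as those of Ly6i were.

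**Figure D5:**
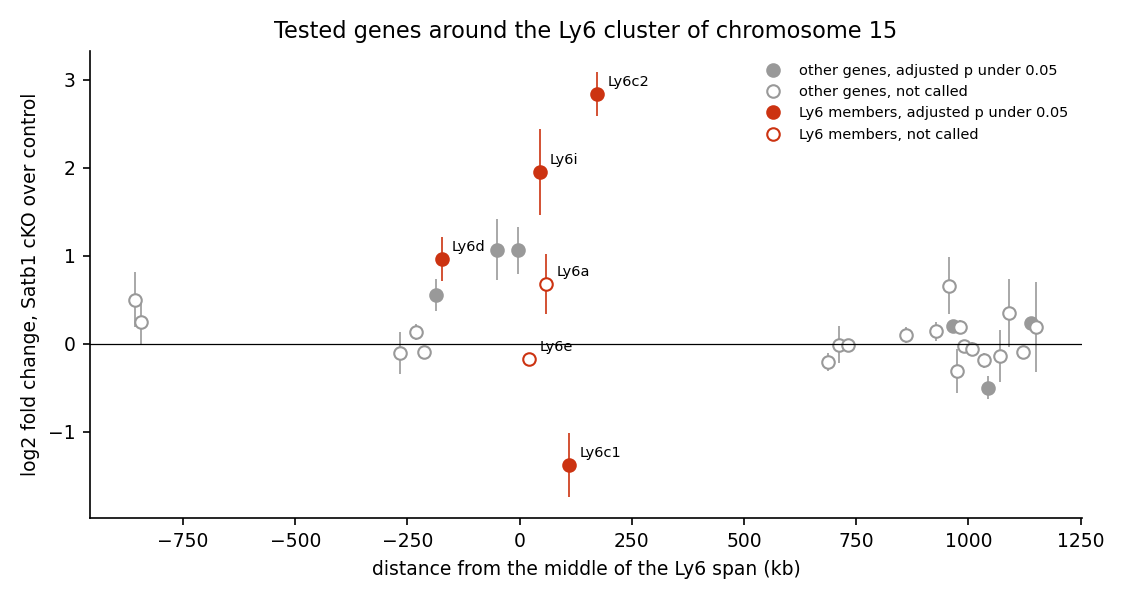
Log2 fold change (cKO over control) with its SE for tested genes around the Ly6 members, by distance from the middle of the Ly6 span in kb. Red marks are members and grey marks other genes, filled where the adjusted p was under 0.05. Members span values from -1.38 (Ly6c1) to 2.84 (Ly6c2), and most other genes lie near 0.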

How the data were processed

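RNA sequencing libraries of 3 control and 3 Satb1 cKO samples were grouped by the sample titles, with the genotypes taken from the labels. The authors deposited raw counts, whole reads per gene, which per the submitters' processing notes were made with STAR 2.7.3a, HTSeq 0.12.4 and the build mm10. The annotation release used for counting, and whether it used strand, are not stated there. Of the 5 summary lines, reads in no gene were 9.18% to 9.5% of all listed reads in control and 7.32% to 7.61% in cKO libraries, and reads aligned to several places, which would include those from identical stretches of Ly6c1 and Ly6c2, were 2.92% to 3.16%. These lines were left out. Symbols and coordinates came from GENCODE M21 (GRCm38), which matched 54349 of 55401 IDs with version and 55141 without. Ly6m and Ly6a2 were matched through RefSeq synonyms.

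Counts were fitted with edgeR 4.0.16 in R 4.3.3 (TMM, filterByExpr, quasi-likelihood test without a block), with adjusted p under 0.05 called. The biological coefficient of variation was 6.27%. Intervals are 95%. Alternatives were RLE scaling, DESeq2 1.42.0, no filter, a filter of 10 CPM in 3 libraries, a replicate block, leaving out globin, immunoglobulin, T cell receptor and mitochondrial genes, and leaving out each library. Libraries of 1 group differed by 2.09 to 6.9 in chi-square per degree of freedom, so none was a copy of another. The members and the 20 gene lists were chosen with earlier results of these data known. Genes were named by rule: all members, Satb1, the called genes with the smallest p of each list (up to 4, or up to 2 for other cell types), the called neighbours, relatives in the window with at least 10 reads, and the 3 nearest genes by pattern. Some genes that this rule takes are not reported here.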

Additional observations from a re-analysis of the deposited data

How the results depend on the processing

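Of 615 values of results under alternatives, most were counts of called genes, which have no sign. As in the main fit were 558. For a count this means within 1.5 times the main count, and for a fold change the same direction and side of the threshold. A further 5 fold changes passed a threshold they had missed, 52 counts moved by more than that, and no fold change changed sign. Ly6c2, Ly6c1, Ly6d and Ly6i kept their calls in every alternative that tested them, with log2 fold changes of 2.47 to 3.07, -1.78 to -1.12, 0.73 to 1.38 and 1.62 to 2.33. The filter of 10 CPM in 3 libraries tested 3 members (8559 genes), with 1 called higher and 0 called lower, and so could not give values for Ly6c1, Ly6d and Ly6i. Members called lower were 2 with DESeq2 and 2 without a filter, through Ly6e, and 1 to 2 when a library was left out, 2 without control replicate 1. Ly6a ranged from 0.25 to 0.96 (adjusted p 1.92e-37 to 0.388) and was called without control replicate 1 and without a filter, a fit whose prior degrees of freedom were infinite against 7.12. Ly6e ranged from -0.30 to -0.11 (adjusted p 2.04e-05 to 0.327). Neighbours called higher were 3 with DESeq2, 2 with the filter of 10 CPM, and 3 to 6 when a library was left out. The Ly6c2 share differed by 54.3 to 57.9 percentage points when a library was left out. Same-numbered libraries did not deviate together (correlations of 0.0215, -0.0125 and 0.0279), so the numbers were not taken as pairs. With a replicate block, 3 members were higher and 1 lower, 6 neighbours were higher, and 2861 genes were higher and 2702 lower, against 2885 and 2766. Depth limits Ly6k, Ly6a2 and Ly6i, with at most 47 reads in a library.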
